A study of Mus musculus with 2 samples.

Results

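The Wnt signalling genes of brain endothelium described here were 10 genes, chosen as the rows of the count matrices whose symbol is Wnt7a, Wnt7b, Fzd4, Lrp6, Adgra2, Reck, Axin2, Apcdd1, Lef1 or Sox17. All 10 were found, each as 1 row, among 19059 genes. They were measured in hippocampus of C57BL/6 mice by single-cell RNA-seq of fixed cells, in which probe pairs stand for genes. Mice of both sexes were 21 months old at the start and received standard chow (control) or chow with 0.05% tomatidine, a steroidal alkaloid of tomato, for 3 months. Hippocampi of 4 mice were pooled per group into 1 library, so the labels cannot separate the mice. Since a diet is thus a single library, the diets could not be tested against each other and no p-value is given. All intervals are 95% intervals for counting error only, and they hold neither the differences between mice nor those between preparations. They are exact, except those for differences between vessel segments and between shares of cells, which are approximate.

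Wnt7a and Wnt7b are secreted ligands by which neural cells act on blood vessels of the central nervous system. On endothelial cells, the adhesion G protein-coupled receptor Gpr124 (gene Adgra2) and the membrane-anchored protein Reck recognise these Wnt7 ligands and hand them to the Frizzled receptor Fzd4 and its co-receptor Lrp6. The signal stabilises beta-catenin, which enters the nucleus and, with partners such as Lef1, switches on genes. Axin2 and Apcdd1 are targets that also restrain the pathway, and Sox17 is an endothelial transcription factor that is induced by it. In the brain the pathway drives vessel growth and keeps the blood-brain barrier in place.

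The control library held 15912 deposited cells and 279525565 unique molecular identifiers (UMIs, each a counted molecule). The tomatidine library held 15185 cells and 259059908 UMIs. After filtering, 15115 and 14502 cells remained, with medians of 7077 and 7408 UMIs, and 262 of their barcodes occurred in both libraries. They fell into 35 clusters, of which 24 were given 1 of 15 class names by markers. Clusters without a name held 19.3% of control cells and 22.6% of tomatidine cells. Choroid plexus-like cells numbered 344 in control and 33 with tomatidine in the 2 libraries. The endothelial-like cluster held 297 control cells (median 6319 UMIs, 3489308 in all) and 419 tomatidine cells (median 4526, 3858353 in all). Its 9 measured endothelial markers lay between 305.5 and 2923 CPM (the UMIs of a gene in a class, scaled to 1e+06 UMIs of that class). All 10 markers of mural cells (pericytes and smooth muscle) were also found in it. They lay between 47.6 and 2523 CPM in control and between 64.0 and 2615 CPM with tomatidine. The cluster was thus not free of mural RNA, and levels given for endothelial-like cells are levels of the whole cluster.

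For promoters, the RefSeq table for GRCm38.p6 matched 5 of the 10 genes, namely Wnt7a, Fzd4, Reck, Axin2 and Lef1. The windows of Axin2, the general feedback target, and of Lef1, the partner of beta-catenin in the nucleus, are shown from 250 bases before to 50 after the transcript start. Capitals mark the core CTTTG of the site that Lef1 and related factors bind, or its complement CAAAG, on either strand. Longer forms searched on both strands consisted of this core followed by AA, AT, TA or TT, so each of them overlaps the core. Of 32851 promoter windows of the same length, 53.9% held the core and 16.9% held a longer form.
Axin2, chr11:108920099-108920398, plus strand: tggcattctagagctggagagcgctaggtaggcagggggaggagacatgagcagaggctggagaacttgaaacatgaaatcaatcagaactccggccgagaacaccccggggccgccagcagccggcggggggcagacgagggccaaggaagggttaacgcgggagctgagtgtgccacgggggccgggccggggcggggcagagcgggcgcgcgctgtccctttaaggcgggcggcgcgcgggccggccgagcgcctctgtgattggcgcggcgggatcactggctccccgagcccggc
Lef1, the most upstream start, chr3:131110047-131110346, plus strand: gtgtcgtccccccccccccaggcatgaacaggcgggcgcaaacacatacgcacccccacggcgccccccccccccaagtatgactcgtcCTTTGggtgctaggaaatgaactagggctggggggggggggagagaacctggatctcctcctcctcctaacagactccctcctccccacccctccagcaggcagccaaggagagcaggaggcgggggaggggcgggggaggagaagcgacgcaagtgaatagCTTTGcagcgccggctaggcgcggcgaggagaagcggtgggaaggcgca
Lef1, the most downstream start, chr3:131156044-131156343, plus strand: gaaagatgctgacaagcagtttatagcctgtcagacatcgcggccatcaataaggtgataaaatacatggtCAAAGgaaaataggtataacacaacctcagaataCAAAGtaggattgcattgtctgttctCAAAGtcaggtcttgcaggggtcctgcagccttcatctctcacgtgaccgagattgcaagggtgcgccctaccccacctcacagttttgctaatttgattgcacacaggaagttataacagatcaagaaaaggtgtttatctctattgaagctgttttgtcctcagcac
The Axin2 window held no core. The upstream Lef1 window held 2 cores and no longer form, and the downstream window held 3 cores and 1 longer form. Of the windows not shown, those of Wnt7a and Fzd4 held no core, that of Reck held 1 longer form, and the other two of Lef1 held 2 cores and 1 core. A match of letters is a description of the window and not evidence of binding.

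**Figure D1:**
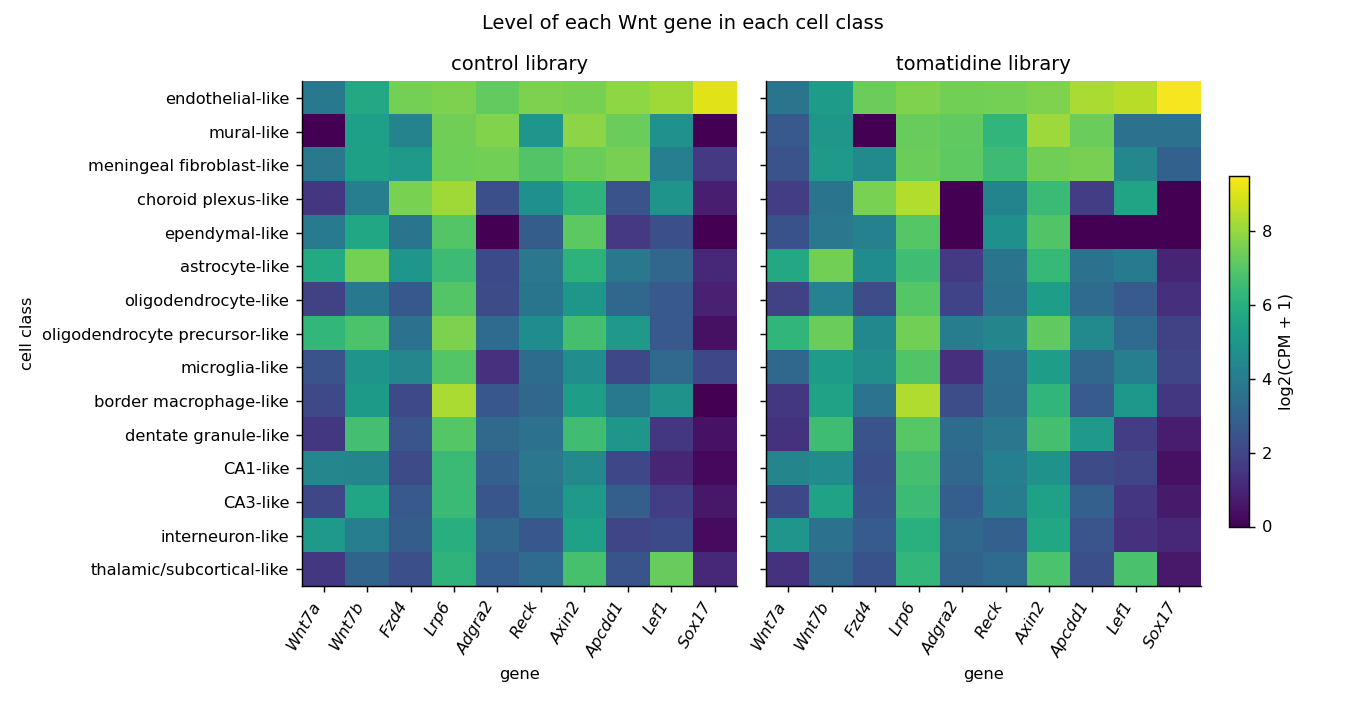
Level of each of the 10 genes (columns) in each of 15 named cell classes (rows), as log2(CPM + 1), in the control library (left) and the tomatidine library (right). Sox17 stands out in the endothelial-like row at 542 and 666 CPM, while Lrp6 and Axin2 are found in every row. Probes differ between genes, so colours compare classes within a gene, not genes with each other.

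The Wnt7 ligands were highest in glia and, for Wnt7b, also in dentate granule-like cells. Wnt7b (ENSMUSG00000022382, chromosome 15 from 85535437 to 85582473, minus strand, GRCm38) reached 181 CPM (174 to 189) in astrocyte-like cells of control and 179 CPM (172 to 187) with tomatidine. Oligodendrocyte precursor-like cells followed with 112 and 164 CPM, and dentate granule-like cells with 99.9 and 93.6 CPM. Among the 12 classes with at least 50 cells in both libraries, neighbours in this order of 3 could not be told apart, since their counting intervals overlapped in at least 1 library. CA3-like neurons, at 48.8 and 43.9 CPM, and endothelial-like cells lay lower and could not be told apart. Astrocytes were not uniform. The cluster led by Cyp4f15, Slc7a10 and Atp13a4 held 296 and 279 CPM of Wnt7b, against 131 and 138 CPM in the largest astrocyte cluster, led by Acsbg1, Slc25a18 and Fam107a, and 150.3 and 135 CPM in that led by Myoc, Thbs4 and Cxcl5.

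Wnt7a (ENSMUSG00000030093, chromosome 6 from 91363981 to 91411363, minus strand) was highest in oligodendrocyte precursor-like cells, at 77.5 CPM (67.9 to 88.2) in control and 75.3 CPM (64.3 to 87.6) with tomatidine. Astrocyte-like cells followed at 54.5 and 52.8 CPM, interneuron-like cells at 33.1 and 29.8 CPM, and CA1-like neurons at 20.1 and 19.0 CPM. In both libraries each of these 4 classes was apart from the next in the order. The same astrocyte cluster led by Cyp4f15 held 106 and 94.8 CPM of Wnt7a, against 28.7 and 28.0 CPM in the largest astrocyte cluster. Dentate granule-like cells, which carried much Wnt7b, held 1.88 and 1.61 CPM of Wnt7a, so hippocampal neurons differed in which Wnt7 gene they carried.

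Endothelial-like cells held 13.2 and 11.7 CPM of Wnt7a and 52.2 and 37.3 CPM of Wnt7b. Microglia-like cells, which are not known as a source of these ligands, held 4.45 and 8.16 CPM of Wnt7a and 29.2 and 36.7 CPM of Wnt7b. At 1500 UMIs per cell, 6.23% of control and 4.19% of tomatidine endothelial-like cells had a UMI of Wnt7b, against 3.76% and 4.58% of microglia-like cells. Without thinning the shares were 24.9% and 16.2% of endothelial-like and 7.72% and 8.88% of microglia-like cells, whose medians were 3073 and 2839 UMIs. The thinned share in endothelial-like cells lay below that in microglia-like cells with tomatidine and above it in control. Whether Wnt7b in endothelial-like cells came from free RNA of other cells was not tested. Astrocyte markers summed to 7599.5 CPM in control and 5469 CPM in tomatidine endothelial-like cells, and the Wnt7b ratio there of −0.48 (−0.81 to −0.16) stands beside that difference, whose part in the result was not tested.

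**Figure D2:**
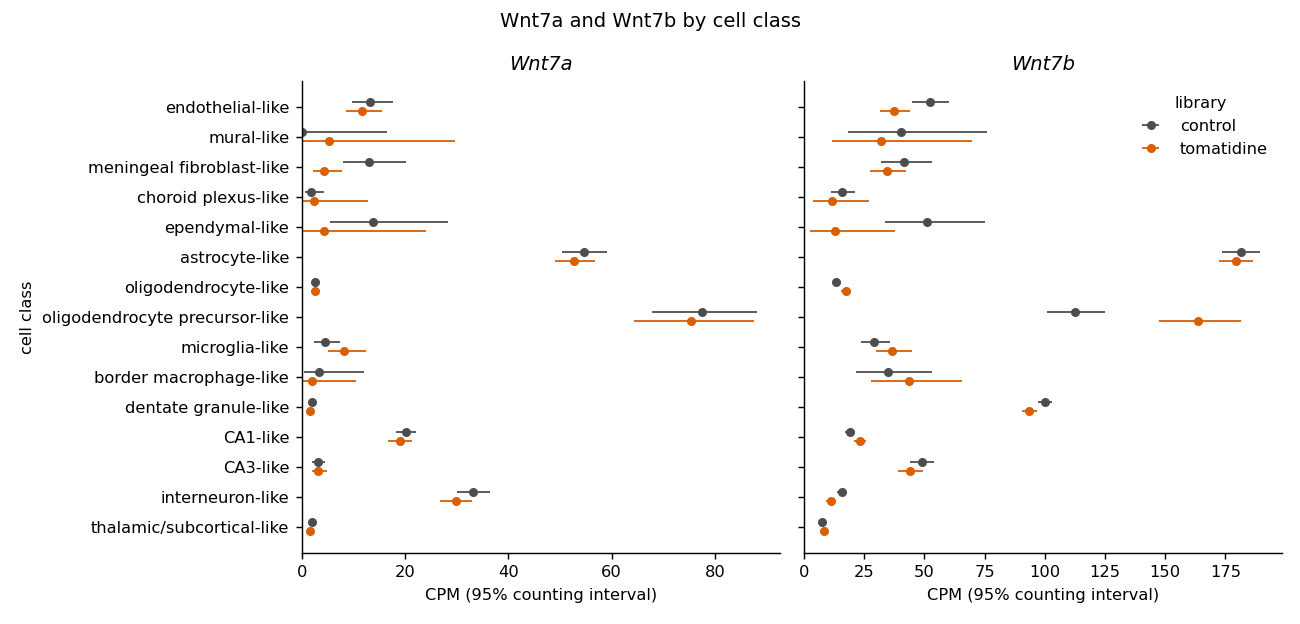
CPM of Wnt7a (left) and Wnt7b (right) in 15 cell classes, control in grey and tomatidine in orange, with exact 95% counting intervals as bars. Astrocyte-like and oligodendrocyte precursor-like cells are high for both genes, dentate granule-like cells for Wnt7b and interneuron-like cells for Wnt7a.

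The receptor Fzd4 (ENSMUSG00000049791, chromosome 7 from 89404355 to 89413134, plus strand) was at 181 CPM (167 to 196) in control and 165 CPM (153 to 179) in tomatidine endothelial-like cells. This was 19.4 times (17.7 to 21.2) and 23.6 times (21.5 to 25.9) the level in all other cells of the same library. Only choroid plexus-like cells, with 192 CPM in each library, held a like amount, although there were 33 such cells with tomatidine. These cells held 525 of the 1897 Fzd4 UMIs outside endothelial-like cells in control and 83 of the 1378 with tomatidine. The 2 folds thus rest on unlike sets of other cells and do not compare the diets. Astrocyte-like cells had 30.8 and 23.6 CPM of Fzd4 as a class, and microglia-like cells 20.3 and 25.2 CPM. The astrocyte cluster led by Cyp4f15 held 55.8 and 43.2 CPM, against 17.9 and 13.5 CPM in the largest astrocyte cluster.

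The ligand-recognising co-receptors were high in endothelial-like and meningeal fibroblast-like cells, and Adgra2 also in mural-like cells. Adgra2 (ENSMUSG00000031486, chromosome 8 from 27085583 to 27123436, plus strand) reached 148 and 175 CPM in endothelial-like cells, 178 and 142 CPM in meningeal fibroblast-like cells, and 205 and 144 CPM in the 40 and 38 mural-like cells. The order of endothelial and fibroblast cells could not be resolved, and every other class with at least 50 cells was at 15.3 CPM or less. Reck (ENSMUSG00000028476, chromosome 4 from 43875530 to 43944806, plus strand) was highest in endothelial-like cells at 195 and 181 CPM, followed by meningeal fibroblast-like cells at 120.5 and 90.4 CPM. The intervals of these 2 classes were apart in both libraries. The few mural-like cells held 31.2 and 74.7 CPM of Reck, from 7 and 14 UMIs. Lrp6 (ENSMUSG00000030201, chromosome 6 from 134446476 to 134566965, minus strand) was broad instead. Its highest class was border macrophage-like cells at 316 and 332 CPM, above endothelial-like cells at 197 and 199.6 CPM, while choroid plexus-like cells, too few with tomatidine to be ranked, held 279 and 338 CPM. Its lowest was interneuron-like cells at 63.0 and 64.9 CPM. Endothelial-like cells held 1.93 times (1.78 to 2.08) and 1.99 times (1.84 to 2.13) the Lrp6 of all other cells.

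Among the targets, Sox17 (ENSMUSG00000025902, chromosome 1 from 4490931 to 4497354, minus strand) was almost wholly endothelial. Of its UMIs, 93.9% in control and 93.4% with tomatidine lay in endothelial-like cells, and every other class with at least 50 cells held 6.77 CPM or less. Apcdd1 (ENSMUSG00000071847, chromosome 18) was at 236 and 310.2 CPM in endothelial-like cells and at 184 and 187 CPM in meningeal fibroblast-like cells. The few mural-like cells held 160.4 and 160.0 CPM, and dentate granule-like and oligodendrocyte precursor-like cells, at 32.0 and 34.1 CPM and at 33.2 and 22.1 CPM, were far lower. Lef1 (ENSMUSG00000027985, chromosome 3 from 131110471 to 131224356, plus strand) was high in vessels and in a group of neurons. It was at 286 and 353 CPM in endothelial-like cells and at 241 and 223 CPM in the thalamic-like cluster led by Gbx2, Abhd12b and Tnnt1. Axin2 (ENSMUSG00000000142, chromosome 11 from 108920349 to 108950783, plus strand) was at 187 and 201 CPM in endothelial-like cells, at 166 and 171 CPM in meningeal fibroblast-like cells and at 227 and 272 CPM in the few mural-like cells. Of the 12 classes CA1-like neurons held the least, at 21.4 and 27.5 CPM. Endothelial-like cells held 2.89 times (2.66 to 3.12) and 2.59 times (2.41 to 2.79) the Axin2 of all other cells.

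By this measure 6 of the 8 receptors, co-receptors and targets, all but Lrp6 and Axin2, were at least 4-fold higher in endothelial-like cells than in all other cells in both libraries. Of all 12543 genes that reached 20 UMIs there, 9.18% were. None of the 10 genes entered the clustering. Among single endothelial-like cells detection was partial. All 4 receptors and co-receptors had a UMI in 33.0% (27.7 to 38.7) of cells in control and in 24.6% (20.5 to 29.0) with tomatidine, and all 4 targets in 39.7% and 39.6%. These shares were not thinned, and control cells were deeper.

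The comparison of the diets asked how these genes stood in endothelial-like cells of treated mice. The 4 targets were higher or level with tomatidine and the receptor Fzd4 and co-receptors Lrp6 and Reck were level within counting error. Apcdd1 had 824 UMIs in control and 1197 with tomatidine, a log2 CPM ratio of 0.39 (0.26 to 0.52). Lef1 had 997 and 1362 UMIs and a ratio of 0.31 (0.19 to 0.42). Sox17 had 1891 and 2569 UMIs and a ratio of 0.30 (0.21 to 0.38). Axin2, with 653 and 774 UMIs, had a ratio of 0.10 (−0.05 to 0.25), which counting error could give.

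Of the receptor group, the Wnt7 co-receptor Adgra2 had 518 and 676 UMIs and a ratio of 0.24 (0.07 to 0.41). Fzd4 had a ratio of −0.13 (−0.29 to 0.03), Lrp6 of 0.02 (−0.13 to 0.17) and Reck of −0.10 (−0.26 to 0.05). The median ratio was 0.30 over the 4 targets and −0.04 over the 4 receptors and co-receptors. Over all 8 genes it was 0.17, and over all 12543 genes tested 0.02. The interval lay above 0 for 4 of the 10 genes and below 0 for 1, Wnt7b, while over all genes 10.2% lay above and 8.83% below. None of the 10 passed a fold of 1.5, which 4.79% of all genes did upwards and 3.82% downwards.

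These ratios depended on which cells were taken as endothelial. A gate on marker counts without clustering left 87 control and 166 tomatidine cells. In it the median over the 8 genes was −0.14, Apcdd1 was at −0.09 (−0.30 to 0.13), Adgra2 at −0.24 (−0.53 to 0.06), Lef1 at 0.06 (−0.14 to 0.26), Sox17 at 0.11 (−0.04 to 0.27) and Fzd4 at −0.45 (−0.71 to −0.19). Clustered cells with at least 4 endothelial markers and at most 1 mural marker, a choice made after seeing the data, numbered 79 and 124. Their median was 0.35, with Sox17 at 0.45 (0.24 to 0.67), Lef1 at 0.46 (0.15 to 0.78), Apcdd1 at 0.31 (−0.07 to 0.70) and Fzd4 at 0.39 (0.01 to 0.77). Sox17 and Lef1 were thus above 0 in each of the 3 selections. Their intervals excluded 0 in the clustered cells and in the subset drawn from them, which are not separate evidence. Under the gate, made without clustering, both intervals included 0. Adgra2 was also at −0.03 under the stricter cell filter.

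Other markers in endothelial-like cells differed between the libraries. The 9 endothelial markers summed to 9536 CPM in control and 10634 CPM with tomatidine, and the 10 mural markers to 6421 and 7966 CPM. The 9 astrocyte markers summed to 7599.5 and 5469 CPM, the 8 oligodendrocyte markers to 3406 and 2830 CPM, and the 8 choroid plexus markers to 2315 and 102 CPM, with 2 of these at 0 with tomatidine. Their part in the results was not tested. Lef1 was also higher with tomatidine in microglia-like cells, at 8.58 and 15.9 CPM, and in astrocyte-like cells, at 7.74 and 14.0 CPM. The astrocyte-like ratio was 0.86 (0.49 to 1.24), and clusters without a name were at 9.69 and 20.9 CPM. In interneuron-like cells and among thalamic or other subcortical neurons Lef1 was lower. Endothelial-like cells held 13.9 times the Lef1 of all other cells in control and 13.8 times with tomatidine.

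**Figure D3:**
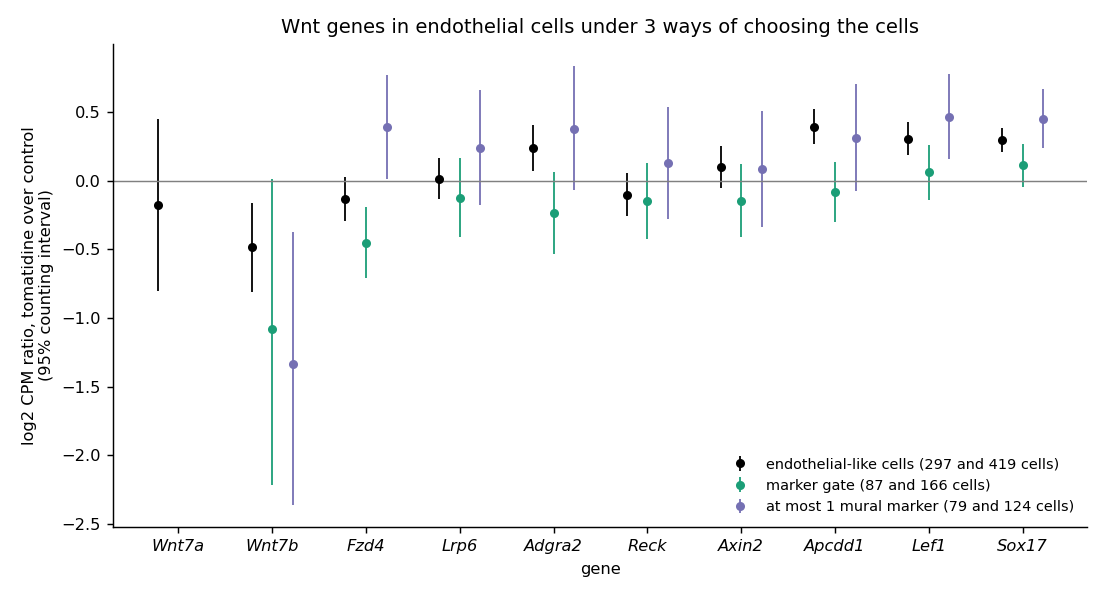
Log2 CPM ratio of tomatidine over control for the 10 genes in endothelial cells chosen by clustering (black), by a marker gate (green) or by clustering with at most 1 mural marker (purple), with 95% counting intervals. Points are missing where fewer than 20 UMIs were counted. Lef1 and Sox17 stay above 0 in all 3 selections, whereas Apcdd1 and Adgra2 lie below 0 under the gate. Under the gate the intervals of all these genes include 0.

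Depth differed between the libraries, so shares of cells were compared at 1500 UMIs per cell, which left out 42 control and 74 tomatidine cells. Lef1 was then found in 31.0% of cells in control and 41.7% with tomatidine, 10.6 points apart (2.62 to 18.4). Sox17 was found in 46.4% and 56.7%, a difference of 10.2 points (1.92 to 18.4). Apcdd1 was found in 26.8% and 31.9%, and its difference of 5.11 points (−2.54 to 12.6) included 0. For Fzd4, Lrp6, Adgra2, Reck and Axin2 the differences lay between 0.264 and 2.87 points, all with intervals that included 0. At 3000 UMIs per cell the differences were 8.79 points (−0.40 to 17.9) for Lef1 and 7.96 points (−0.42 to 16.4) for Sox17, and both intervals included 0. Without thinning, Lef1 was found in 61.6% and 67.1% of cells and Sox17 in 68.0% and 71.1%. At 1500 UMIs 1.22% of control and 2.18% of tomatidine microglia-like cells had a UMI of Lef1, and 0.571% and 0.563% one of Sox17, far below the endothelial shares.

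Within 4 bands of depth, Sox17 had ratios of 0.44 (−0.34 to 1.27) under 2000 UMIs, 0.36 from 2000 to 6000, 0.21 from 6000 to 15000 and 0.27 above. Lef1 had ratios of 1.40, 0.76, 0.10 and 0.27 in the same bands. Fzd4, by contrast, was at 0.58 (0.12 to 1.06) from 2000 to 6000 UMIs and at −0.49 (−0.79 to −0.18) from 6000 to 15000, so its overall ratio joined bands of opposite sign. Cells of 15000 UMIs and more were 77 of the control and 83 of the tomatidine cells. They held 1190 of the 1891 Sox17 UMIs of control and 1381 of the 2569 with tomatidine. Levels and ratios from summed UMIs therefore give these deep cells more weight. As a mean over cells the ratios were 0.33 for Sox17, 0.46 for Lef1, 0.22 for Apcdd1, 0.09 for Adgra2 and 0.06 for Fzd4.

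Endothelial-like cells were next split by the vessel segment whose markers led, with 6 arterial and 6 venous markers that included none of the 10 genes. Of control cells 73 leaned arterial, 135 venous and 89 neither way, and of tomatidine cells 103, 203 and 113. In control the lead was a single marker in 56 venous-leaning and 43 arterial-leaning cells, and with tomatidine in 79 and 47, so the split is a range and not a set of types. Sox17, which is known from arteries, was highest in arterial-leaning cells, at 894 CPM in control and 842 CPM with tomatidine, against 400 and 576 CPM in venous-leaning cells. Apcdd1 ran the other way, at 163 and 193 CPM in arterial-leaning and 283 and 414 CPM in venous-leaning cells. The receptor genes differed little between segments in control, with Fzd4 at 183 and 196 CPM, Lrp6 at 221 and 189 CPM, Adgra2 at 154 and 151 CPM and Reck at 194 and 192 CPM.

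Among the targets, for Sox17 and Lef1 the higher level with tomatidine lay in venous-leaning more than in arterial-leaning cells, by more than counting error, whereas for Apcdd1 the interval of that difference included 0. Sox17 had a log2 ratio of −0.09 (−0.21 to 0.04) in arterial-leaning and 0.53 (0.39 to 0.66) in venous-leaning cells, a difference of 0.61 (0.43 to 0.80). Lef1 had −0.19 (−0.42 to 0.03) and 0.60 (0.45 to 0.76), a difference of 0.80 (0.52 to 1.08). Apcdd1 had 0.24 (−0.04 to 0.53) and 0.55 (0.39 to 0.72), a difference of 0.31 (−0.02 to 0.64). Axin2 was at −0.03 and 0.18, both with intervals that included 0. Among receptors, Adgra2 was at 0.14 (−0.16 to 0.44) in arterial-leaning and 0.41 (0.18 to 0.64) in venous-leaning cells, a difference of 0.27 (−0.11 to 0.65) that included 0. Fzd4 was at −0.38 (−0.67 to −0.08) and −0.01 (−0.22 to 0.21), a difference of 0.37 (0.0019 to 0.74) that barely excluded it. Arterial-leaning cells had medians of 8319 UMIs in control and 7582 with tomatidine, and venous-leaning cells 8002 and 4799. Whether this unequal depth had a part in the differences between segments was not tested. Cells that leaned neither way were shallower, with medians of 3106 and 2018 UMIs. Their ratios were 0.37 for Sox17 and for Lef1 and 0.49 for Apcdd1.

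**Figure D4:**
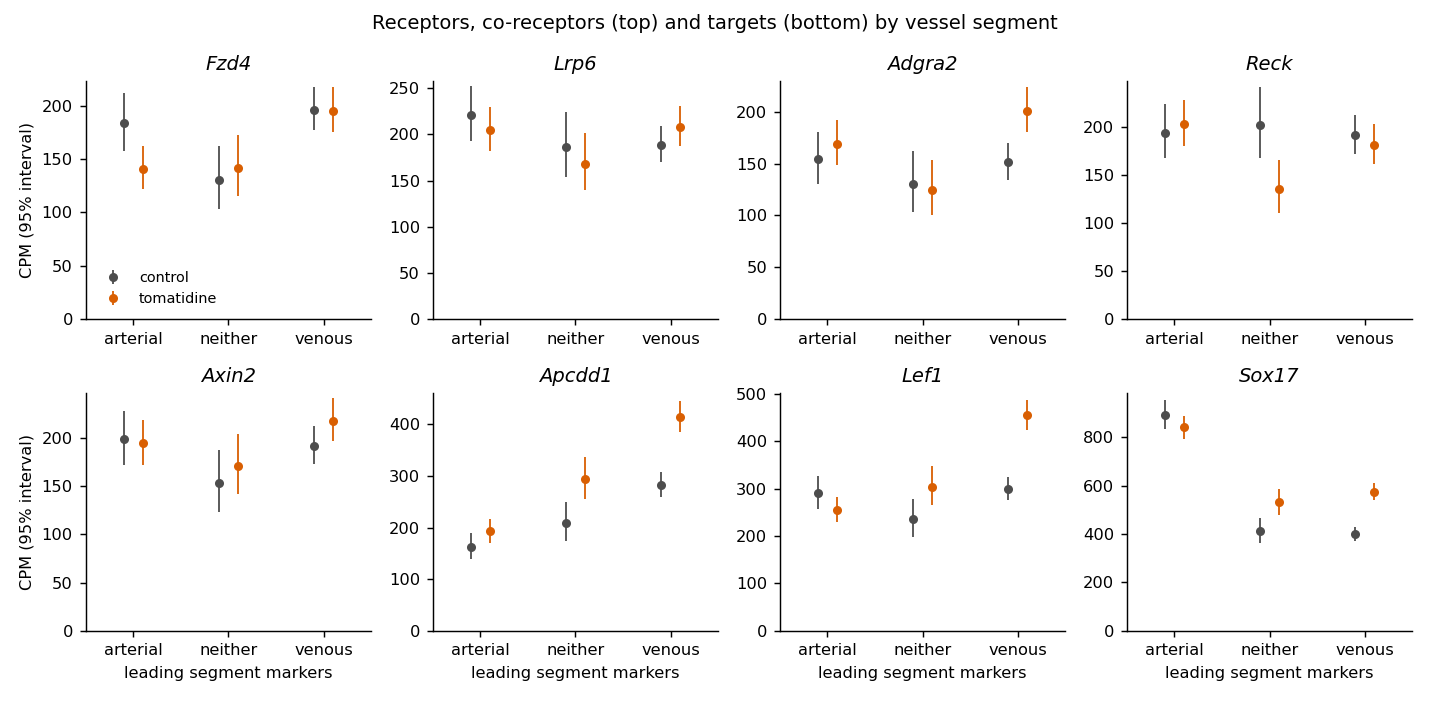
CPM of 4 receptors and co-receptors (top) and 4 targets (bottom) in endothelial-like cells that leaned arterial, neither way or venous by marker counts, control in grey and tomatidine in orange, with exact 95% counting intervals. Tomatidine points for Lef1, Apcdd1 and Sox17 lie above control in venous-leaning cells, and those of Lef1 and Sox17 lie slightly below in arterial-leaning cells.

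Outside vessels the ratio of Wnt7b differed in direction between cell classes, and that of Wnt7a was level in the classes where it was highest. Wnt7b was level in astrocyte-like cells (log2 ratio −0.02, −0.10 to 0.07) and higher with tomatidine in oligodendrocyte precursor-like cells (0.54, 0.32 to 0.76), where the mean over cells gave 0.25. Wnt7a was level in astrocyte-like (−0.05, −0.21 to 0.11), oligodendrocyte precursor-like (−0.04, −0.34 to 0.25), interneuron-like (−0.15, −0.36 to 0.05) and CA1-like cells (−0.08, −0.32 to 0.14). In these classes Wnt7a thus differed between the libraries by no more than counting error. Wnt7b was lower with tomatidine in dentate granule-like (−0.09, −0.16 to −0.03) and interneuron-like cells (−0.52, −0.84 to −0.20). It was higher in CA1-like (0.29, 0.07 to 0.51) and oligodendrocyte-like cells (0.38, 0.13 to 0.63). In CA3-like cells its interval included 0 (−0.15, −0.38 to 0.07). Clusters without a name held 1731 and 2512 UMIs of Wnt7b and were at 0.28 (0.19 to 0.37).

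Axin2 was the gene whose interval excluded 0 in the most classes. Its interval lay above 0 in 9 of the 15 classes, among them oligodendrocyte precursor-like (0.48, 0.25 to 0.71), microglia-like (0.66, 0.22 to 1.10) and CA1-like cells (0.36, 0.16 to 0.56), and it lay below 0 in none. The share of all genes with an interval above 0 was 9.03% in microglia-like, 9.33% in oligodendrocyte precursor-like, 9.51% in border macrophage-like, 12.3% in astrocyte-like, 13.8% in CA3-like, 17.6% in interneuron-like, 22.7% in dentate granule-like, 24.4% in oligodendrocyte-like and 30% in CA1-like cells. In meningeal fibroblast-like cells 3 of the 10 genes had an interval below 0, namely Wnt7a (−1.57, −2.78 to −0.44), Reck (−0.41, −0.70 to −0.13) and Adgra2 (−0.33, −0.56 to −0.09), and 1, Sox17, above 0, while 8.67% of all genes lay below and 5.76% above. Lef1 in the class of thalamic or other subcortical neurons was at 156 CPM in control and 109 CPM with tomatidine (−0.52, −0.59 to −0.45), but its 3 clusters differed. The cluster led by Gbx2, rich in Lef1, was at −0.11 (−0.20 to −0.02). That led by Pou4f2, Barhl2 and Barhl1, with 26.3 and 67.0 CPM, held 198 of the 607 control cells of the class and 672 of the 941 cells from the tomatidine library, and was at 1.35 (1.11 to 1.60).

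The rest of the pathway in endothelial-like cells was read from 7 lists. Of 24 other ligands and ligand-processing genes, 12 had at least 20 UMIs, the median ratio was −0.13, and 2 had an interval above 0 and 1 below. Wls, which carries Wnt proteins to the cell surface, was at 124 and 122 CPM, the acyltransferase gene Porcn at 73.4 and 62.2 CPM and the ligand Wnt5a at 59.9 and 60.6 CPM. Wnt5b, a ligand of mostly beta-catenin-independent signalling, had 40 and 112 UMIs (1.34, 0.81 to 1.90) and Wnt9a 34 and 20 UMIs (−0.91, −1.79 to −0.07). Of 19 other receptors, 18 were measured, with a median of −0.05, 1 above and 2 below. Fzd6 was at 226 and 251 CPM (0.15, 0.02 to 0.29), the co-receptor Lrp5 at 189 and 184.5 CPM, and Ryk at 86.3 and 86.8 CPM, while Fzd2 was at 33.5 and 17.9 CPM (−0.91, −1.36 to −0.47). Fzd2 was highest in meningeal fibroblast-like cells, at 277.5 and 277.2 CPM, and was at 134 and 139 CPM in astrocyte-like cells.

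Of 19 inhibitors, 12 were measured, with a median of −0.04, 1 above and 3 below. Dkk3 was at 195 and 164 CPM (−0.25, −0.41 to −0.09) and the Wnt deacylase Notum at 107 and 105.5 CPM. The ubiquitin ligase Znrf3, which removes Frizzled receptors from the membrane, was at 64.2 and 45.6 CPM (−0.49, −0.79 to −0.20). All 16 genes of beta-catenin turnover and signal relay were measured, with a median of −0.02. Ctnnb1, which encodes beta-catenin, was the 1 gene among them with an interval above 0, at 824 and 986 CPM (0.26, 0.19 to 0.33), and none lay below. Gsk3b was at 227 and 247 CPM and Apc at 166 and 154 CPM. The 12 nuclear partners had a median of −0.01, with Tcf7l1 higher (0.56, 0.15 to 0.98) and Tcf7l2 lower (−0.28, −0.53 to −0.04). Bcl9l was at 103 and 102 CPM, Ctnnbip1 at 84.3 and 87.1 CPM and Tle3 at 80.0 and 82.7 CPM. Tcf7l2 was highest among thalamic or other subcortical neurons, at 775 and 630 CPM.

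The 12 general targets had a median of 0.02. Nkd1 was higher (0.21, 0.04 to 0.37), Nkd2 (−0.45, −0.88 to −0.04) and Znrf3 lower, and Tnfrsf19, at 221 and 228 CPM, and Notum were level. Of 13 brain endothelial genes that depend on Wnt signalling, all were measured, with a median of 0.07, 6 intervals above 0 and 1 below, where 10.2% and 8.83% of all genes in these cells lay. The transcription factor genes Sox7 (0.51, 0.25 to 0.77), Foxq1 (0.49, 0.34 to 0.64) and Sox18 (0.41, 0.32 to 0.50) and the tight junction gene Cldn5 (0.28, 0.24 to 0.32) were higher. Cldn5 was also among the markers used to name endothelial-like cells. Mfsd2a, a lipid transporter that limits transcytosis, was lower (−0.37, −0.52 to −0.22). The glucose transporter gene Slc2a1 was level at 2859 and 2786 CPM. The amino acid transporter gene Slc7a5 was slightly higher with tomatidine, at 1254 and 1348 CPM (0.10, 0.05 to 0.16). Over the 7 lists 12 of 90 measured genes passed a fold of 1.5 in either direction. Of all genes with at least 20 UMIs in these cells, 4.79% passed it upwards and 3.82% downwards. Where at least 100 UMIs were asked for, 2 of 62 listed genes passed, and no share over all genes was taken at that bound.

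**Figure D5:**
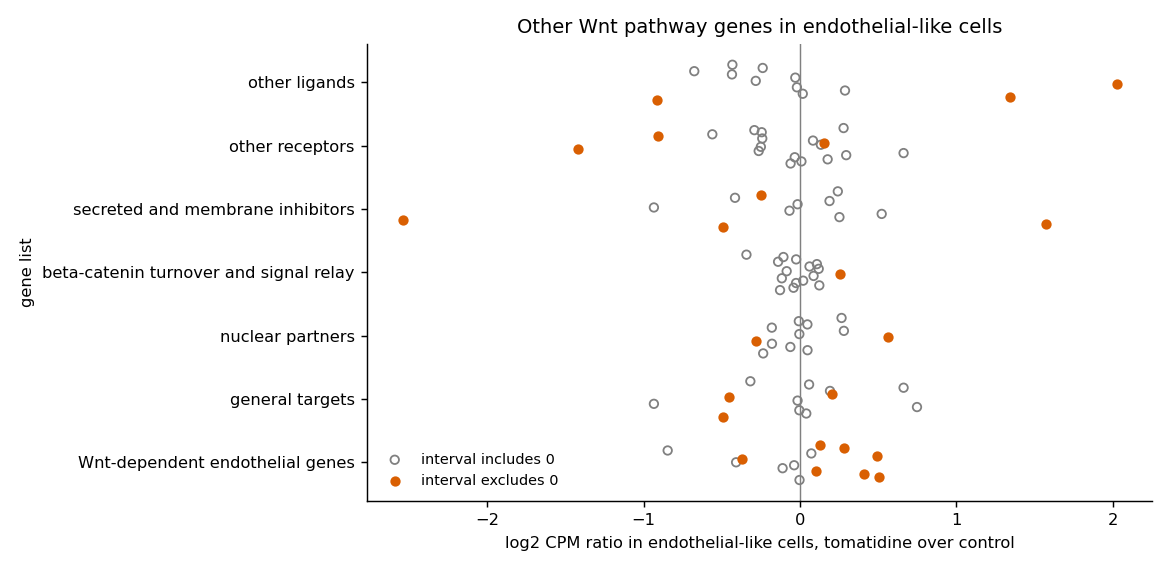
Log2 CPM ratio between the tomatidine and control libraries for genes of 7 Wnt lists that reached 20 UMIs in endothelial-like cells, 1 point a gene, filled where the 95% counting interval excludes 0. Genes that belong to 2 lists appear in both. Points lie on both sides of 0 in most lists, and 6 of the 7 filled points among Wnt-dependent endothelial genes lie above 0.

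By the correlation of log2(CPM + 1) over 30 points, 15 classes in each of 2 libraries, each gene was set beside 13240 others. The points share libraries and classes, so r is a description. Sox17 was most like Srarp and Foxf1 (r = 0.97 for each), Apcdd1 like Ppic (0.93) and Adgra2 (0.91), Adgra2 like Hic1 (0.91) and Apcdd1, and Reck like Foxl2 (0.90) and A4galt (0.89). Wnt7b was most like Mmd2 (0.89) and Tubb2b (0.81), and Wnt7a like Adra1a (0.80) and Scrg1 (0.75). Fzd4 was most like Acacb (0.86) and Slco1c1 (0.84), Axin2 like Ptk7 (0.85) and Cald1 (0.85), Lef1 like Gbe1 (0.85) and Grb7 (0.82), and Lrp6 like Iqgap1 (0.83) and Dab2 (0.82). Adgra2 and Apcdd1 were thus the only 2 of the 10 genes named for each other.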

How the data were processed

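Single-cell RNA-seq of fixed hippocampal cells was available as 1 library of 4 pooled mice per diet. The authors deposited raw UMI counts per gene and cell, made with Cell Ranger 8.0.0 per the labels against mm10, while the matrix headers name version 7.1.0. No column was left without a sample. A cell was kept if it had 500 UMIs or more, over 250 genes, a log10 gene number over 0.8 of its log10 UMI number, and mitochondrial UMIs below 20%. The 2% with the highest Scrublet score per library were removed as doublets (308 and 296), since its own calls were 0 and 2. Libraries were joined by reciprocal PCA in Seurat 5.3.0 (R 4.3.3) with 30 components and Louvain resolution 0.8, leaving out 126 genes, among them the 10 genes described and the other Wnt genes. Clusters were named by markers, and the naming rule was revised after the clusters were seen. Different naming could give different values.

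UMIs were summed per class and library. Ratios are of CPM, need 20 UMIs over both libraries, and carry exact conditional binomial intervals (scipy 1.17.1), which cover counting error only. Other named genes were, per Wnt list, those with at least 50 UMIs whose interval excluded 0 (at most 5, furthest from 0), the 3 with the highest CPM in endothelial-like cells, and the 2 genes most correlated with each described gene. The genes and lists were chosen with earlier results of these data known. Scripts (Python 3.11.15, scanpy 1.11.5, edgeR 4.0.16 for TMM factors alone) were tested on simulated data. Alternatives varied filters, doublets, resolution, naming, depth and scaling, and 2 on mural content were added after seeing the data. Probes per gene differ, so levels do not compare genes, and CPM only served to choose which of a list to name.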

Additional observations from a re-analysis of the deposited data

Results flagged for a closer look

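For 7 genes the log2 CPM ratio of tomatidine over control had counting intervals on opposite sides of 0 in different cell classes. In each case the difference was not tested, since each diet has 1 library. Wnt7b was at 0.54 in oligodendrocyte precursor-like cells and at −1.98 in the 27 and 12 ependymal-like cells. Fzd4 was at 0.95 in oligodendrocyte precursor-like and −0.38 in astrocyte-like cells. Adgra2 was at 0.24 in endothelial-like cells and, from 39 and 28 UMIs, at −0.74 in astrocyte-like cells. The interval of the latter, −1.49 to −0.0003, barely excluded 0. Reck was at 0.36 in CA1-like and −0.41 in meningeal fibroblast-like cells. Apcdd1 was at 1.29 in microglia-like cells, from 10 and 21 UMIs, and −0.59 in oligodendrocyte precursor-like cells. Lef1 was at 1.55 in CA1-like cells, from 20 and 42 UMIs, and −1.10 in interneuron-like cells, from 45 and 19. Sox17 was at 1.79 in meningeal fibroblast-like cells, from 3 and 17 UMIs, and −1.05 among thalamic or other subcortical neurons, from 23 and 16 UMIs.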

How the results depend on the processing

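The median ratio of 0.17 over the 8 receptor, co-receptor and target genes in endothelial-like cells was −0.14 under the marker gate and 0.35 in cells with at most 1 mural marker. Adgra2 was at −0.027 with the stricter cell filter and at −0.24 under the gate, and Apcdd1 at −0.086 under the gate. The log2 ratio of the summed CPM of Wnt7a and Wnt7b in astrocyte-like over endothelial-like cells, averaged over the libraries, was 2.03 and became 2.55 with the stricter cell filter, 1.79 at resolution 1.5, 3.20 under the gate, 2.48 as a mean over cells and 2.19 with at most 1 mural marker. Of the other Wnt genes 12 of 90 passed a fold of 1.5, and 2 of 62 did with at least 100 UMIs. Sox17 in arterial-leaning over venous-leaning cells, with both libraries pooled although they differ in it, was at 0.84 on the log2 scale, and at 0.95 where a lead of 2 markers was asked for. The cause was not tested. Of 190 single ratios under the alternatives, 165 stayed within the counting interval, 22 moved further, and the 3 named above changed sign from a ratio whose interval had excluded 0. Ratios whose interval included 0 also changed sign under some alternatives, such as Axin2 (−0.15 under the gate), Fzd4 (0.39) and Reck (0.13) with at most 1 mural marker, Lrp6 (−0.13 under the gate) and Wnt7a in CA1-like cells (0.19 with the stricter cell filter). With 1 library per diet none could be left out. No paired analysis was possible because each diet has 1 library. Depth limits the 87 and 166 gated cells and every gene near 20 UMIs.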
